A study of Mus musculus with 17 samples.

Results

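The coagulation, fibrinolysis and complement genes described here are 38 genes taken by symbol, 24 of coagulation and fibrinolysis and 14 of complement, from the 49315 genes of the liver table and the 15632 genes listed in at least 1 hepatocyte file. All 38 were found in both experiments, all 38 passed the filter on low counts in both, and all 38 were listed in each of the 9 hepatocyte files. The study sequenced RNA from mice with lesions in the sphingomyelin synthase family: SMSr (gene Samd8), an enzyme of the endoplasmic reticulum, and the sphingomyelin synthases Sms1 (Sgms1) and Sms2 (Sgms2). Liver came from 4 wild-type (WT) and 4 SMSrKO samples, both on a high-fat diet with fructose in the drinking water for 16 weeks, and the labels give no age for these mice. Hepatocytes were isolated by a collagenase method in 2 steps from mice of 2 months, with 3 samples each of WT, Sms1/Sms2-dKO (dKO, lacking both sphingomyelin synthases) and Sms1/Sms2/Smsr-tKO (tKO, lacking SMSr as well). No treatment or diet is labelled for the hepatocyte mice, and the sources used here do not say which promoter or cell type limits any of the lesions. The labels speak of 3 mice per hepatocyte group but tie no library to an animal, so each p-value rests on the spread among these libraries, part or all of which may be technical.

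Most circulating clotting and complement proteins are made and secreted by hepatocytes. Clotting is a chain of proenzymes that ends when thrombin cuts fibrinogen into fibrin, held in check by plasma anticoagulants and by receptors on the vessel wall, and plasmin dissolves the clot. Complement is started by antibody, by lectins that bind sugars or by slow turnover of C3, converges on the cleavage of C3, and ends in a pore of terminal components. Several of these genes, fibrinogen, C3 and factor B among them, are acute phase genes, which liver cells raise after inflammatory cytokines.

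Liver libraries held 24391627 to 47351126 counts and hepatocyte libraries 9221488 to 9665309 expected counts, and the common coefficient of variation between replicates was 20.3% in liver and 3.52% in hepatocytes. One extract protocol on the labels names subcutaneous fat for the SMSrKO experiment, while albumin (Alb) stood at 38260 to 60870 CPM (counts scaled to library size) and the fat cell gene Adipoq at no more than 0.0716 CPM in all 8 liver libraries. Samd8 RNA was not lower in the libraries labelled SMSrKO (47.5 to 61.2 CPM against 37.3 to 55.9 in WT) or tKO (99.3 to 104.2 CPM against 65.3 to 72.7 in WT). Sgms1 RNA was at 85.0 to 95.3 CPM in dKO and 56.6 to 62.9 in tKO against 45.6 to 51.8 in WT. Sgms2 RNA was at 132.1 to 163.7 CPM in dKO and 146.1 to 158.5 in tKO against 173.9 to 189.6 in WT. Gene counts do not show whether these transcripts carry a deletion, so the directions below rest on the labels. Liver WT 1 stood apart from the other liver libraries, at -48.7 on principal component 1 against -9.1 to -15.3 for the other WT libraries, and the main liver results are given with and without it.

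The members ranged widely in RNA level, and their order within each experiment was led by the genes of a few secreted proteins. On a scale per length (FPKM), the highest members in WT hepatocytes were fibrinogen beta Fgb at 4403 ± 162 (SD, n = 3), fibrinogen alpha Fga at 2001 ± 35.8, the central complement protein C3 at 1757 ± 28.5 and fibrinogen gamma Fgg at 1653 ± 26.9. The lowest were C6 at 2.12 FPKM, urokinase Plau at 0.63, tissue plasminogen activator Plat at 0.33, thrombomodulin Thbd at 0.217 and tissue factor pathway inhibitor Tfpi at 0.157. In WT liver, on the TPM scale of the separate liver table, C3 led at 5540 ± 1145 (SD, n = 4), followed by Fgg at 3053 ± 1318, Fga at 2847 ± 1304 and Fgb at 2070 ± 824. The spread of the 3 chains in liver covers their differences, so their order there is not resolved. Plau at 3.67, Tfpi at 3.55 and Plat at 0.388 TPM were again the lowest.

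In hepatocytes both lists held members that rose and members that fell. With edgeR's quasi-likelihood test at an adjusted p below 0.05, 9 of 24 coagulation members rose and 8 fell in dKO against WT, and 6 of 14 complement members rose and 4 fell, where 24.0% of all 11471 genes tested rose and 20.0% fell. In tKO against WT, 7 coagulation members rose and 12 fell, and 4 complement members rose and 7 fell, beside 25.6% and 21.8% of all genes. In tKO against dKO, 2 coagulation members rose and 11 fell, and 4 complement members rose and 5 fell, beside 14.3% and 15.2% of all genes. The median log2 fold change of the coagulation members was 0.00 in dKO against WT, -0.09 in tKO against WT and -0.16 in tKO against dKO, and that of the complement members 0.01, -0.10 and 0.04, where all genes had medians of -0.01, 0.00 and 0.00. The dKO and tKO comparisons share the same WT libraries, so their values are given side by side and are not independent. In RNA from a mixture of cells, fewer cells of a type and less RNA per cell cannot be told apart.

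**Figure D1:**
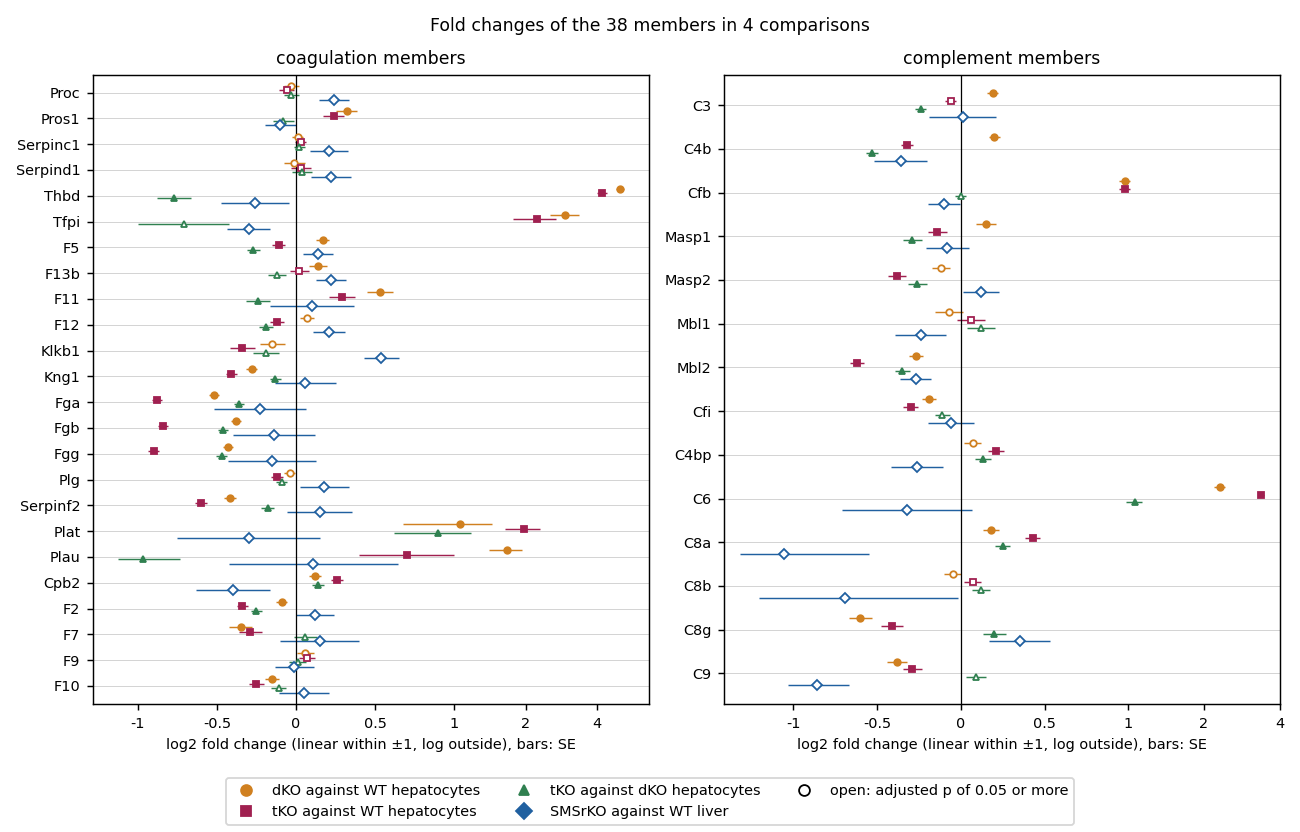
Log2 fold change (x axis, linear within 1 of 0 and logarithmic outside) of each of the 38 members (y axis, grouped by role) in the 3 hepatocyte comparisons and in liver, with SE as bars and filled symbols for an adjusted p below 0.05. The 3 fibrinogen chains lie left of 0 in all hepatocyte comparisons, Thbd, Tfpi and C6 lie far right in dKO and tKO against WT, and every liver symbol is open.

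The 3 fibrinogen chains, which assemble into the soluble precursor of the clot, fell together and in steps from WT to dKO to tKO. Fga stood at 6050, 5906 and 5763 CPM in WT, at 4139, 4124 and 4069 in dKO and at 3313, 3146 and 3157 in tKO. Fgb stood at 7624, 7213 and 7074 CPM in WT, at 5534, 5687 and 5562 in dKO and at 4243, 4006 and 3992 in tKO. Fgg stood at 2822, 2816 and 2731 CPM in WT, at 2067, 2116 and 2031 in dKO and at 1533, 1478 and 1489 in tKO. For each chain every WT library lay above every dKO library, and every dKO library above every tKO library. The log2 fold change against WT was -0.52 ± 0.0326 (SE) in dKO and -0.88 ± 0.0328 in tKO for Fga, with adjusted p of 1.08e-24 and 5.39e-39. For Fgb it was -0.38 ± 0.033 and -0.84 ± 0.0332 (adjusted p of 2.37e-17 and 3.54e-37), and for Fgg -0.43 ± 0.0335 and -0.90 ± 0.0338 (adjusted p of 1.99e-19 and 1.46e-38). Between tKO and dKO the chains differed by -0.36 ± 0.0327, -0.46 ± 0.0331 and -0.47 ± 0.0337 in the same order (adjusted p of 8.8e-16, 1.39e-20 and 1.14e-20). Summed over the 3 chains, fibrinogen made up 68.6% to 69.8% of the coagulation members' CPM in WT libraries, 63.4% to 63.5% in dKO and 57.5% to 58.5% in tKO. The other 21 coagulation members together moved less, from 7080 to 7130 CPM in WT to 6700 to 6820 in dKO and 6256 to 6505 in tKO.

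Fga, Fgb and Fgg lie side by side on mouse chromosome 3 (GRCm38), Fgg at chr3:83007724-83015049, Fga at chr3:83026076-83033627 and Fgb, on the opposite strand, at chr3:83040141-83049863. In the gene annotation of the liver counts, the exons of Fgg overlap those of the predicted gene Gm30097. Its liver count is therefore uncertain where reads fall in the overlap, and the annotation of the hepatocyte counts was not checked. The 250 bases before each RefSeq start (GRCm38.p6) are shown because the 3 genes moved together, 5′ to 3′ on the gene's own strand, at chr3:83025903-83026152 for Fga, chr3:83049864-83050113 for Fgb (minus strand) and chr3:83007474-83007723 for Fgg. Capitals mark matches, on either strand, to the HNF1 half-site GTTAAT, the C/EBP form TTNNGCAA or the STAT form TTCNNNGAA. No capital stretch overlaps another.
Fga: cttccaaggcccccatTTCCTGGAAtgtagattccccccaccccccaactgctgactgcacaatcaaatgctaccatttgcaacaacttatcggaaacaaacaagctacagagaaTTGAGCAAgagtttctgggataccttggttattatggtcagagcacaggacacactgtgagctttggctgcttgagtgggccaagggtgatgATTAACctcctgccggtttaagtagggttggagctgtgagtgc
Fgb: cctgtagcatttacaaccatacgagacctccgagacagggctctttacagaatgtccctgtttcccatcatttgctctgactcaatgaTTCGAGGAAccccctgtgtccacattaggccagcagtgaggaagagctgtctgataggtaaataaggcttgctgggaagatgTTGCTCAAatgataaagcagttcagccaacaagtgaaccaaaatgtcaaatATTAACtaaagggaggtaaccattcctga
Fgg: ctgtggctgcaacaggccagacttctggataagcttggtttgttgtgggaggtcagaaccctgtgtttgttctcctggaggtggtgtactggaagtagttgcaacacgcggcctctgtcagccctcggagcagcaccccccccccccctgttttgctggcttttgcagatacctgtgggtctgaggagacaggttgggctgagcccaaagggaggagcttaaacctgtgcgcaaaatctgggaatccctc
Fga and Fgb each held 1 match to each of the 3 forms, and Fgg held none within this window. Over all 32851 promoter windows of the RefSeq table, 6.4% held the HNF1 half-site, 9.6% the C/EBP form and 7.0% the STAT form. Of 30 windows of the 28 members in that table, 6, 7 and 6 held them (20.0%, 23.3% and 20.0%). The interferon-stimulated response element form GAAANNGAA and the NF-kB consensus were in 7.1% and 7.3% of all windows and in 0 of the 30. These matches are letters in a window, and no binding was measured.

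**Figure D2:**
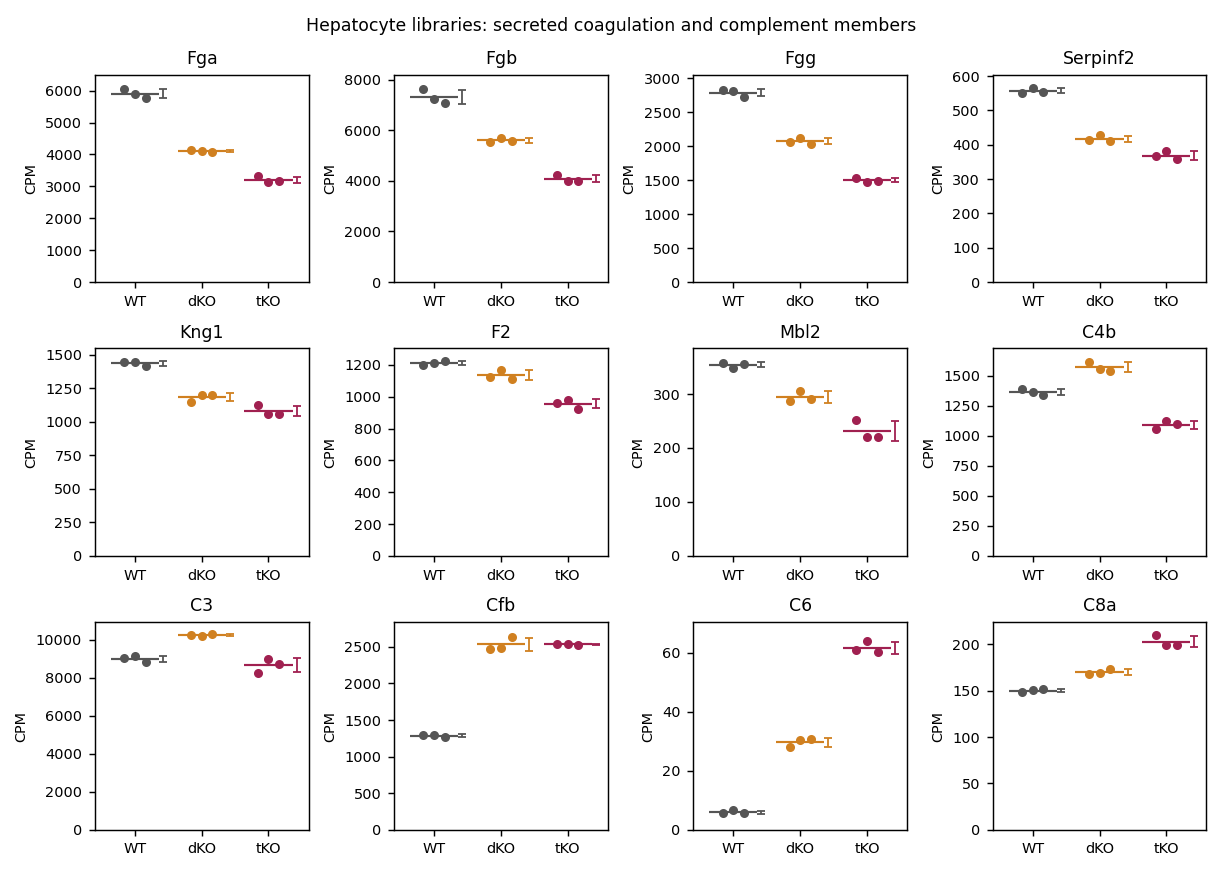
CPM (y axis, from 0) of 12 members in each hepatocyte library of WT, dKO and tKO (points), with the group mean (line) and SD (bar, n = 3). Fga, Fgb, Fgg, Serpinf2, Kng1, F2 and Mbl2 step down from WT to tKO, C6 and C8a step up, and Cfb is about 2-fold higher in both dKO and tKO.

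Across all genes, 3.49% had 3 hepatocyte groups that did not overlap in the order WT above dKO above tKO, and 5.08% in the opposite order. Of the coagulation members 6 followed the first order and 1 the second, and of the complement members 2 and 3. Besides the fibrinogen chains, the first order held for prothrombin F2, for Serpinf2, the inhibitor of plasmin, for Kng1, the precursor of kinins, and for the complement genes Mbl2 and Masp2. The opposite order held for Cpb2, a carboxypeptidase that slows clot lysis, and for C6, C8a and C4bp. An order without overlap is not a call, and the dKO values of C4bp and Masp2 against WT did not pass (adjusted p of 0.216 and 0.0676).

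Serpinf2 was at 550.6, 565.1 and 554.9 CPM in WT, 412.3, 427.3 and 411.2 in dKO and 365.7, 381.5 and 357.3 in tKO. Its log2 fold change against WT was -0.42 ± 0.038 in dKO and -0.60 ± 0.0382 in tKO (adjusted p of 3.94e-16 and 4.27e-24). Its target's precursor, plasminogen Plg, differed less, with -0.04 ± 0.0351 in dKO (adjusted p = 0.42) and -0.12 ± 0.0351 in tKO (adjusted p = 0.00248). Cpb2 was at 542.9, 513.1 and 470.9 CPM in WT, 544.9, 552.9 and 561.3 in dKO and 645.6, 598.4 and 589.4 in tKO. The rise of Cpb2 was 0.12 ± 0.0405 in dKO, where the lowest dKO library lay just above the highest WT library, and 0.26 ± 0.0403 in tKO (adjusted p of 0.0121 and 6.46e-08). In dKO that call was lost without WT 3 (adjusted p = 0.254) or dKO 6 (adjusted p = 0.0562).

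Among the contact factors, which start clotting on charged surfaces, Kng1 fell and factor XI, F11, rose. Kng1 was at 1448, 1443 and 1416 CPM in WT, 1150, 1197 and 1201 in dKO and 1122, 1059 and 1055 in tKO, a log2 fold change of -0.28 ± 0.035 and -0.41 ± 0.035 (adjusted p of 1.2e-10 and 1.22e-17). F11 was at 25.5, 30.2 and 28.7 CPM in WT, 44.3, 39.0 and 39.0 in dKO and 35.0, 36.3 and 32.1 in tKO. F11 was highest in dKO, with 0.53 ± 0.0805 against WT (adjusted p = 3.62e-08) and 0.29 ± 0.0822 for tKO against WT (adjusted p = 0.00224). For tKO against dKO, F11 was at -0.24 ± 0.0771 (adjusted p = 0.0109). DESeq2 did not call this difference (adjusted p = 0.0697), and it was lost without dKO 4 or tKO 9 (adjusted p of 0.122 and 0.0915). Plasma prekallikrein Klkb1 fell in tKO by 0.34 ± 0.0797 (adjusted p = 0.000226), and its dKO value of -0.15 ± 0.0785 did not pass (adjusted p = 0.117). Factor XII, F12, fell in tKO by 0.12 ± 0.0429 (adjusted p = 0.0186) and was at 0.07 ± 0.0426 in dKO (adjusted p = 0.191). The F12 call against WT was lost without WT 3 (adjusted p = 0.0847) or tKO 9 (adjusted p = 0.0966). In tKO against dKO F12 was lower, at -0.19 ± 0.0427 (adjusted p = 0.000325), a call that held with each library left out.

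The vitamin K dependent proenzymes are cut in turn into the clotting proteases, and 3 of these 4 genes fell in both genotypes. F2 was at 1201, 1210 and 1227 CPM in WT, 1127, 1170 and 1114 in dKO and 962.5, 979.6 and 926.3 in tKO. Its log2 fold change was -0.09 ± 0.0351 in dKO and -0.34 ± 0.0352 in tKO (adjusted p of 0.0246 and 5.88e-14), and the dKO call was lost without WT 2, WT 3, dKO 4 or dKO 6 (adjusted p of 0.058, 0.0838, 0.0741 and 0.11). Factor VII, F7, which starts clotting together with tissue factor, fell by 0.35 ± 0.0734 in dKO and by 0.29 ± 0.0724 in tKO (adjusted p of 5.31e-05 and 0.000568). Factor X, F10, which activates prothrombin, fell by 0.15 ± 0.0454 and 0.25 ± 0.0455 (adjusted p of 0.00632 and 2.69e-06). Factor IX, F9, passed in neither, with 0.06 ± 0.0529 and 0.07 ± 0.0526 (adjusted p of 0.338 and 0.265). Factor V, F5, the cofactor of factor X, rose in dKO by 0.17 ± 0.0417 (adjusted p = 0.000673) and fell in tKO by 0.11 ± 0.0421 (adjusted p = 0.0257). The tKO call of F5 was lost without WT 1, WT 3 or tKO 8 (adjusted p of 0.194, 0.0552 and 0.162). The test of tKO against dKO for F5 gave -0.27 ± 0.0418 (adjusted p = 9.56e-08). F13b, the carrier subunit of the fibrin-linking enzyme, rose in dKO by 0.14 ± 0.0589 (adjusted p = 0.0407), a call lost without any 1 of the WT libraries, dKO 4 or dKO 5 (adjusted p of 0.0706 to 0.289), and was at 0.02 ± 0.0592 in tKO.

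The genes of anticoagulants secreted by hepatocytes moved little beside those of the vessel wall. Antithrombin Serpinc1, at 994.9 to 1032 CPM in WT, 1013 to 1029 in dKO and 1007 to 1073 in tKO, passed in no comparison, with log2 fold changes of 0.01 ± 0.0353 in dKO and 0.03 ± 0.0352 in tKO against WT, and 0.02 ± 0.0352 between tKO and dKO. Protein C, Proc, and heparin cofactor Serpind1 passed in none either, with values between -0.06 and 0.04, except that Proc in tKO against WT passed without tKO 8 (adjusted p = 0.0477). Protein S, Pros1, the cofactor of protein C, rose by 0.32 ± 0.0665 in dKO and 0.24 ± 0.0666 in tKO (adjusted p of 3.84e-05 and 0.00171).

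Thbd (chr2:148404466-148408188), the endothelial receptor that turns thrombin into an activator of protein C, was at 0.657, 0.540 and 1.19 CPM in WT, 25.1, 24.5 and 27.8 in dKO and 15.5, 16.1 and 13.7 in tKO. Its log2 fold change was 4.99 ± 0.192 in dKO and 4.22 ± 0.213 in tKO against WT, and -0.77 ± 0.106 in tKO against dKO (adjusted p of 6.93e-38, 2.58e-30 and 4.45e-09). Tfpi, which blocks factor X and the tissue factor complex, was at 0.548, 0.324 and 0.217 CPM in WT, 3.74, 2.36 and 2.48 in dKO and 1.96, 1.77 and 1.52 in tKO. Tfpi rose by 2.94 ± 0.41 and 2.23 ± 0.453 (adjusted p of 4.05e-09 and 2.31e-05), and the difference between tKO and dKO did not pass, at -0.71 ± 0.287 (adjusted p = 0.0541, and 0.0451 without dKO 5). For both genes no WT library reached the level of any dKO or tKO library.

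Plat and Plau, the enzymes that turn plasminogen into plasmin, were low in every hepatocyte library and differed in their pattern. Plau was at 1.21, 1.19 and 1.95 CPM in WT, 4.59, 3.97 and 5.39 in dKO and 1.96, 2.08 and 3.05 in tKO. Plau was highest in dKO, with 1.67 ± 0.266 against WT (adjusted p = 1.41e-07), 0.70 ± 0.303 for tKO against WT (adjusted p = 0.0484) and -0.97 ± 0.237 for tKO against dKO (adjusted p = 0.000766). Its lowest tKO library only just exceeded its highest WT library, DESeq2 gave an adjusted p of 0.154 there, and the call was lost without WT 1, WT 2 or tKO 9 (adjusted p of 0.155, 0.161 and 0.278). Plat was at 0.548, 1.19 and 0.758 CPM in WT, 2.24, 1.18 and 1.83 in dKO and 2.58, 3.22 and 4.07 in tKO. Plat was highest in tKO, with 1.97 ± 0.332 against WT (adjusted p = 5.14e-07) and 0.90 ± 0.281 against dKO (adjusted p = 0.00933). The second call of Plat was lost without dKO 5 or tKO 9 (adjusted p of 0.0905 and 0.0958) and in DESeq2 (adjusted p = 0.102). Its dKO and WT libraries overlapped, and that rise of 1.06 ± 0.381 (adjusted p = 0.0179) did not pass in DESeq2 (adjusted p = 0.0767) and was lost without WT 1, WT 3 or dKO 4 (adjusted p of 0.105, 0.0594 and 0.119).

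Markers of other liver cells also differed between the hepatocyte groups. Plat was highest in tKO, though DESeq2 did not call its difference from dKO (adjusted p = 0.102). The endothelial and stellate cell sums were highest in dKO, and the macrophage sum was highest in tKO. The summed CPM of 12 endothelial markers was 34.2 to 36.3 in WT, 191.8 to 209.3 in dKO and 110.9 to 116.4 in tKO hepatocyte libraries. Of the 11 that were tested, 11 rose in dKO, 10 rose in tKO and 10 were lower in tKO than in dKO. Macrophage markers summed to 121.2 to 136.4 CPM in WT, 320.2 to 338.8 in dKO and 365.1 to 385.9 in tKO, and stellate cell markers to 16.4 to 20.3, 57.4 to 62.6 and 35.6 to 39.3. Of the 4 macrophage markers tested, all rose in both genotypes against WT with edgeR (DESeq2 did not call Lyz2 in tKO, adjusted p = 0.0625). In tKO against dKO edgeR called Cd68 higher (0.30 ± 0.0466) and Cd5l lower (-0.82 ± 0.327, adjusted p = 0.0485, and 0.258 with DESeq2), and Lyz2 and Mpeg1 did not pass (-0.66 ± 0.383 and -0.06 ± 0.0566). The 9 hepatocyte markers found summed to 59530 to 61650, 52080 to 53120 and 48370 to 50180 CPM. Most of this was Alb, at 47300 to 49310, 41360 to 41850 and 37430 to 38710 CPM. The single markers differed in direction. In dKO against WT edgeR called Alb, Apob, Ahsg and Hnf4a lower and Apoa1 higher. In tKO against WT it called Alb, Ttr, Ahsg and Asgr1 lower and Hnf4a and Tat higher. In the liver libraries, endothelial markers summed to 578.4 to 861.4 CPM, above every hepatocyte library, while Thbd stood at 4.51 to 9.75 CPM there, above the WT hepatocytes and below every dKO and tKO hepatocyte library. Tfpi stood at 6.34 to 10.4 CPM in liver, above every hepatocyte library. Liver and hepatocyte libraries were made and scaled separately, so these levels are set side by side without a test. The part of other cells in the rise of Thbd, Tfpi, Plat and Plau was not tested.

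**Figure D3:**
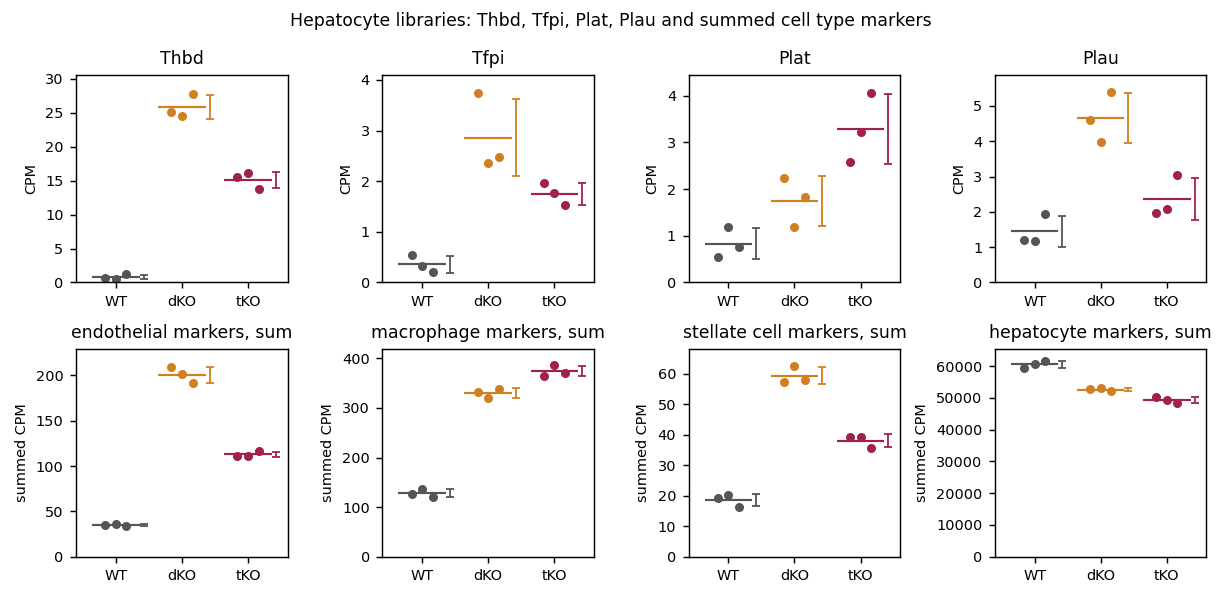
CPM (y axis, from 0) of Thbd, Tfpi, Plat and Plau and the summed CPM of 4 cell type marker lists in each hepatocyte library (points), with the group mean (line) and SD (bar, n = 3). Thbd and the endothelial and stellate cell sums are lowest in WT and highest in dKO, while Plat and the macrophage sum are highest in tKO (among the 4 macrophage markers tested only Cd68 was called higher in tKO than in dKO).

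The RNA of the complement genes of the C3 step rose in dKO and parted in tKO. Cfb (chr17:34856374-34862518), the protease of the alternative pathway, was at 1301, 1298 and 1266 CPM in WT, 2477, 2491 and 2633 in dKO and 2539, 2541 and 2528 in tKO. Cfb was 1.97-fold higher than WT in both genotypes, 0.98 ± 0.0341 on the log2 scale in each (adjusted p of 1.05e-40 and 6.39e-41). Between tKO and dKO the fold change of Cfb was 0.00 ± 0.0335 (adjusted p = 0.982). C4b, the complement component C4 of the classical and lectin pathways, was at 1393, 1365 and 1338 CPM in WT, 1618, 1559 and 1540 in dKO and 1057, 1124 and 1096 in tKO. C4b rose by 0.20 ± 0.0348 in dKO, fell by 0.32 ± 0.035 in tKO and was lower in tKO than in dKO by -0.53 ± 0.035 (adjusted p of 8.19e-07, 6.11e-13 and 1.22e-22). C3 was at 9030, 9135 and 8825 CPM in WT, 10250, 10170 and 10280 in dKO and 8242, 8964 and 8740 in tKO. C3 rose by 0.19 ± 0.032 in dKO (adjusted p = 9.11e-07), was at -0.06 ± 0.032 in tKO (adjusted p = 0.139, and 0.0381 without tKO 8) and differed by -0.24 ± 0.032 between tKO and dKO (adjusted p = 1.43e-09). C4b has a near-identical copy, C4a, and in the annotation of the liver counts Cfb shares exons with the predicted gene Gm20547. The counts of both may thus depend on how shared reads were assigned. For Cfb the annotation of the hepatocyte counts was not checked.

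The terminal components, which build the membrane pore, moved in different directions. C6 (chr15:4727175-4815456) was at 5.70, 6.59 and 5.63 CPM in WT, 28.0, 30.5 and 30.7 in dKO and 60.9, 64.1 and 60.4 in tKO. C6 had the largest change of the 14 complement members, 2.31 ± 0.113 in dKO and 3.37 ± 0.0993 in tKO against WT and 1.06 ± 0.0725 between tKO and dKO (adjusted p of 4.66e-31, 4.5e-46 and 6.55e-22), that is 4.97-fold, 10.3-fold and 2.08-fold. In liver C6 was at 17.0 to 56.7 CPM, so its tKO hepatocyte level was above that of every liver library and its WT hepatocyte level below all of them. Liver and hepatocyte libraries were counted and scaled separately, and these levels were not tested. C8a was at 148.3, 150.6 and 151.7 CPM in WT, 168.3, 168.7 and 173.4 in dKO and 210.1, 199.7 and 199.1 in tKO, a rise of 0.18 ± 0.0458 and 0.43 ± 0.0449 (adjusted p of 0.000747 and 8.07e-14). C8g fell instead, from 75.8, 71.6 and 74.3 CPM in WT to 45.9, 54.7 and 45.6 in dKO and 60.8, 50.9 and 55.5 in tKO. Its log2 fold changes were -0.60 ± 0.0669 and -0.41 ± 0.0652 (adjusted p of 2.26e-12 and 1.68e-07), and the dKO and tKO libraries overlapped. In tKO against dKO C8g was called higher, at 0.20 ± 0.0691 (adjusted p = 0.0245). DESeq2 did not call this difference (adjusted p = 0.113), and it was lost without dKO 4, dKO 6 or tKO 7 (adjusted p of 0.14, 0.149 and 0.203). C9, which polymerises into the pore wall, fell by 0.38 ± 0.0583 in dKO and 0.29 ± 0.0575 in tKO (adjusted p of 5.93e-08 and 1.3e-05). C8b passed in no hepatocyte comparison, with values of -0.05, 0.07 and 0.12, except that the last, tKO against dKO, passed without dKO 4 or tKO 9 (adjusted p of 0.0414 and 0.0496). The 3 chains of C8 thus gave 1 that rose, 1 that fell and 1 that did not pass against WT.

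The lectin pathway starts with mannose-binding lectins that carry the proteases Masp1 and Masp2. Mbl2 was at 357.5, 349.1 and 356.5 CPM in WT, 287.0, 306.4 and 290.1 in dKO and 252.1, 220.9 and 220.7 in tKO, with no overlap between the 3 groups. Mbl2 fell by 0.27 ± 0.0424 in dKO and 0.62 ± 0.0431 in tKO (adjusted p of 1.39e-07 and 5.83e-22), and tKO differed from dKO by -0.35 ± 0.0435 (adjusted p = 2.4e-10). Its relative Mbl1 was at 28.2, 29.7 and 31.0 CPM in WT, 29.7, 27.7 and 27.4 in dKO and 33.8, 29.4 and 29.1 in tKO, and passed in no comparison. Masp2 fell in tKO by 0.38 ± 0.0549 (adjusted p = 8.5e-09), and its dKO value of -0.12 ± 0.0539 did not pass (adjusted p = 0.0676, and 0.0404 without dKO 5). Masp1 rose in dKO by 0.15 ± 0.0573 and fell in tKO by 0.14 ± 0.0586 (adjusted p of 0.0233 and 0.0405), and DESeq2 called neither (adjusted p of 0.0782 and 0.0951). Without WT 2, WT 3 or dKO 4 the first Masp1 call was lost (adjusted p of 0.0553 to 0.136), and without WT 1, WT 2, tKO 8 or tKO 9 the second (0.0652 to 0.127). In tKO against dKO Masp1 was lower, at -0.29 ± 0.0577 (adjusted p = 2.58e-05, and 0.000187 with DESeq2). Masp2 was also lower there, at -0.26 ± 0.0553 (adjusted p = 9.12e-05, and 0.000547 with DESeq2). Both of these calls held with each library left out. In the annotation of the liver counts Masp2 shares exon sequence with Tardbp on the opposite strand, and that of the hepatocyte counts was not checked. The strand setting of the counts is not given in the sources used here. Of the regulators, factor I, Cfi, which cleaves C3b and C4b, fell by 0.19 ± 0.0427 in dKO and 0.30 ± 0.0428 in tKO (adjusted p of 0.000118 and 7.52e-09). Its cofactor C4bp was at 0.07 ± 0.0489 in dKO (adjusted p = 0.216) and rose in tKO by 0.21 ± 0.0482 (adjusted p = 0.000199). In tKO against dKO, C4bp was at 0.13 ± 0.0479 (adjusted p = 0.0275, and 0.0893 with DESeq2). That call was lost without dKO 5, dKO 6 or tKO 7 (adjusted p of 0.0508, 0.111 and 0.254).

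The small spread between hepatocyte replicates let small changes pass, such as that of F2 in dKO, so the members were also tested with the common dispersion of the liver libraries (edgeR likelihood ratio test). In dKO against WT, 5 of the 27 members called then passed, all of them higher: Thbd, Tfpi, Plau, C6 and Cfb, beside 7.58% of all genes higher and 1.62% lower. In tKO against WT, 8 of 30 passed: Thbd, Tfpi, Plat, C6 and Cfb were higher and Fga, Fgb and Fgg lower, beside 7.65% and 3.00% of all genes. In tKO against dKO only C6 of 22 passed, beside 0.959% and 1.88% of all genes. Against a fold of 1.2 in place of 0 (edgeR glmTreat), 8 coagulation and 4 complement members passed in dKO against WT, 9 and 6 in tKO against WT, and 5 and 2 in tKO against dKO, where 17.6%, 20.6% and 8.19% of all genes did.

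The other genes of the pathways were read from 2 further lists. Of all genes, 24.0% rose and 20.0% fell in dKO against WT, and 25.6% and 21.8% in tKO against WT. In tKO against dKO 14.3% rose and 15.2% fell. Of 28 other coagulation and fibrinolysis genes tested in hepatocytes, 13 rose and 5 fell in dKO against WT, 11 and 10 in tKO against WT, and 6 and 12 in tKO against dKO. Those with the largest folds at 5 CPM or more included Procr, the endothelial receptor of protein C, at 12.7 ± 0.837 CPM in dKO and 8.03 ± 0.382 in tKO against 1.52 ± 0.318 in WT, a rise of 3.05 ± 0.199 and 2.39 ± 0.215 (adjusted p of 1.35e-23 and 1.69e-16). F3, tissue factor, which starts clotting, was at 52.7 ± 4.92 CPM in dKO and 43.6 ± 2.08 in tKO against 19.7 ± 1.61 in WT, a rise of 1.42 ± 0.0826 and 1.14 ± 0.0846 (adjusted p of 2.35e-26 and 1.11e-20). Thbs1, a matrix protein also released by platelets, was at 16.4 ± 2.21 CPM in WT, 65.2 ± 5.99 in dKO and 28.2 ± 4.33 in tKO, and Lman1, a cargo receptor for factors V and VIII, fell in dKO by 0.49 ± 0.0488 (adjusted p = 1.96e-14).

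Of 23 other complement genes tested in hepatocytes, 11 rose and 4 fell in dKO against WT, 10 and 6 in tKO against WT, and 1 and 6 in tKO against dKO. The shares of all genes were 24.0% and 20.0%, 25.6% and 21.8%, and 14.3% and 15.2%. In dKO against WT the largest rises were in genes with means below 5 CPM. These were C1qc (6.76 ± 1.02), C1qa (4.11 ± 0.7), C3ar1 (4.04 ± 0.717), Fcna (3.89 ± 0.599), C1qb (3.06 ± 0.551) and Cd55 (2.79 ± 0.374). C4a, also below 5 CPM, fell (-1.4 ± 0.377). The part of other cells in these counts was not tested. C2, the classical pathway protease that is the counterpart of Cfb, was at 83.4 ± 6.88 CPM in WT, 140.1 ± 2.61 in dKO and 154.5 ± 3.02 in tKO, a rise of 0.75 ± 0.0525 and 0.89 ± 0.0518 (adjusted p of 7.78e-22 and 1.61e-26). Between tKO and dKO, C2 differed by 0.14 ± 0.0485 (adjusted p = 0.0195). Cpn1, a subunit of the carboxypeptidase that inactivates complement fragments, was at 149.2 ± 4.64 CPM in WT, 130.1 ± 3.39 in dKO and 117.2 ± 6.58 in tKO. Cpn1 fell by 0.20 ± 0.0488 in dKO and 0.35 ± 0.0491 in tKO (adjusted p of 0.00048 and 4.38e-09).

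Acute phase genes outside the members were read as a further list, since fibrinogen, C3 and Cfb belong to the same class. Of 15 such genes, 13 rose and 1 fell in dKO against WT and 10 rose and 4 fell in tKO against WT, and 15 of 15 were lower in tKO than in dKO. Their summed CPM was 19210 to 20590 in WT, 29130 to 29830 in dKO and 23370 to 23840 in tKO. Of all genes, 24.0% rose and 20.0% fell in dKO against WT, and 25.6% and 21.8% in tKO against WT. In tKO against dKO 15.2% of all genes were lower. The serum amyloid gene Saa1 was at 508.0 ± 41.6 CPM in WT, 1628 ± 35.4 in dKO and 1096 ± 31.7 in tKO. Against WT, Cfb was higher with most of them in both genotypes and C3 in dKO, whereas the 3 fibrinogen chains were lower in both. Itih4 of this list was also lower than WT in both, at -0.27 ± 0.0344 in dKO and -0.67 ± 0.0347 in tKO. In tKO against dKO the fibrinogen chains were lower together with the whole list, at -0.36, -0.46 and -0.47. Cfb did not differ there, at 0.00 ± 0.0335.

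In liver, none of the members passed the edgeR test. It called 0 of 24 coagulation and 0 of 14 complement members in SMSrKO against WT, where 0.120% of 15820 genes rose and 0.114% fell. At an unadjusted p under 0.05 there were 3 coagulation members, Klkb1, Proc and F13b, and 3 complement members, C9, Mbl2 and C4b, beside 2075 of all genes. The median log2 fold change was 0.11 for coagulation and -0.25 for complement members, beside -0.01 for all genes. Without WT 1 these medians were 0.23, -0.03 and -0.01, and 10 coagulation and 2 complement members had an unadjusted p under 0.05, beside 2328 of 15988 genes. DESeq2 called 1 coagulation and 2 complement members, where it called 2.42% of all genes in either direction, and edgeR with no filter on low counts called Klkb1 (adjusted p = 0.0287) beside 0.460% of all genes.

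Klkb1 (chr8:45266689-45294859) was at 102.1, 125.3, 130.1 and 132.2 CPM in WT liver and at 183.3, 171.9, 197.5 and 159.7 in SMSrKO. Every SMSrKO library lay above every WT library for Klkb1, with a log2 fold change of 0.54 ± 0.109 and adjusted p of 0.0892 in edgeR and 0.00137 in DESeq2. Klkb1 shares exon sequence with the predicted gene Gm45753. C9 was at 293.4, 185.7, 200.4 and 162.2 CPM in WT and at 128.4, 137.0, 105.4 and 93.7 in SMSrKO. All SMSrKO libraries lay below all WT libraries for C9, at -0.86 ± 0.192 with adjusted p of 0.119 in edgeR and 0.00326 in DESeq2. Mbl2 was at 357.9, 330.7, 319.7 and 343.3 CPM in WT and 292.4, 285.2, 286.5 and 258.6 in SMSrKO, again without overlap, at -0.27 ± 0.0905 (adjusted p of 0.259 in edgeR and 0.0391 in DESeq2). Without WT 1 the log2 fold changes were 0.46 for Klkb1, -0.66 for C9 and -0.24 for Mbl2.

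Proc was at 422.7, 425.3, 438.2 and 435.7 CPM in WT liver and 541.7, 508.8, 523.2 and 462.5 in SMSrKO, without overlap, at 0.24 ± 0.0945 (adjusted p = 0.318). F13b was at 177.3, 163.6, 169.1 and 148.3 CPM in WT and 212.3, 196.9, 184.1 and 174.5 in SMSrKO, with the lowest SMSrKO library below WT 1 (0.22 ± 0.0963, adjusted p = 0.367). C4b was at 3186, 2119, 2594 and 2290 CPM in WT and 2303, 1992, 1775 and 1885 in SMSrKO, with overlap (-0.36 ± 0.158, adjusted p = 0.375). Without WT 1 the values were 0.23 for Proc, 0.26 for F13b and -0.23 for C4b. F5 and F12 were the other members whose liver groups did not overlap, at 0.14 ± 0.0965 and 0.21 ± 0.102 (adjusted p of 0.562 and 0.408), and at 0.15 and 0.23 without WT 1. In all, 4 coagulation members lay above WT in every SMSrKO library and 2 complement members below it, where 3.79% of all genes tested lay above and 4.32% below. Hepatocyte markers summed to 62540 to 71600 CPM in WT liver and 78940 to 89870 in SMSrKO. Most of this was Alb, at 38260 to 49370 and 53230 to 60870 CPM. The part of this difference in the members' values was not tested.

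Liver WT 1 was the highest library for the fibrinogen chains and for several complement members. Fga was at 6766, 3388, 2774 and 2558 CPM in WT and 3309, 3317, 3794 and 2828 in SMSrKO. C8a was at 581.6, 170.5, 123.3 and 140.4 CPM in WT and 168.0, 75.2, 128.7 and 104.4 in SMSrKO. C8b was at 128.3, 36.1, 16.4 and 25.1 CPM in WT and 52.7, 14.8, 31.0 and 29.8 in SMSrKO. For these 3 genes WT 1 lay above all other liver libraries, and without it the 2 groups overlapped. The log2 fold changes of Fga, Fgb and Fgg were -0.23 ± 0.291, -0.14 ± 0.258 and -0.15 ± 0.277, and 0.18, 0.21 and 0.23 without WT 1. For C8a the value went from -1.09 ± 0.539 to -0.28 without WT 1, and for C8b from -0.69 ± 0.675 to 0.30. Of the 38 members 8 changed sign without WT 1, and edgeR's quasi-likelihood test called 0 with or without it. Acute phase genes outside the members summed to 35910 CPM in WT 1, 13610 to 16250 in the other WT liver libraries and 11700 to 15220 in SMSrKO.

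**Figure D4:**
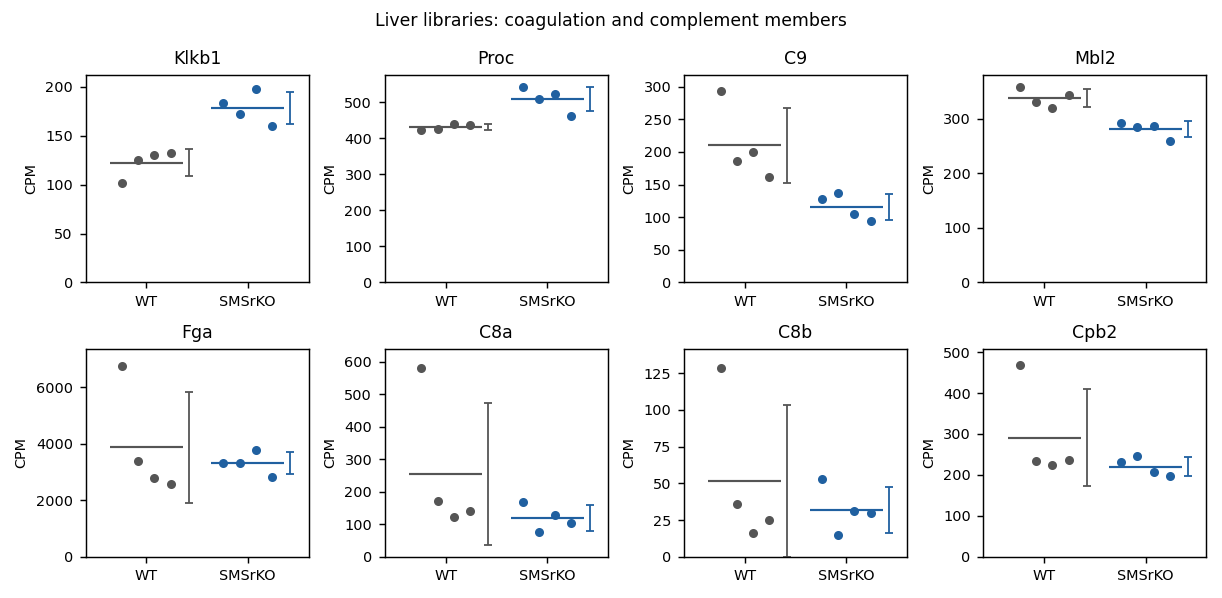
CPM (y axis, from 0) of 8 members in each liver library of WT and SMSrKO (points, in replicate order), with the group mean (line) and SD (bar, n = 4). The groups do not overlap for Klkb1, Proc, C9 and Mbl2, and for Fga, C8a, C8b and Cpb2 the first WT point lies far above the other 3.

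The liver directions were set beside those of hepatocytes, in other mice and on another diet. Klkb1 was at 0.54 ± 0.109 in SMSrKO liver and at -0.19 ± 0.081 in tKO against dKO hepatocytes, the comparison that also adds the SMSr lesion, and neither passed (adjusted p of 0.0892 and 0.067), although the hepatocyte value passed without dKO 4 or tKO 7 (0.0364 and 0.0218). C9 was at -0.86 ± 0.192 and 0.09 ± 0.0594 in the same pair, again with neither passing (adjusted p of 0.119 and 0.288). Mbl2 was at -0.27 ± 0.0905 in liver, which did not pass with edgeR (adjusted p = 0.259). In tKO against dKO hepatocytes Mbl2 fell by 0.35 ± 0.0435 (adjusted p = 2.4e-10). It had also fallen in dKO against WT, by 0.27 ± 0.0424 (adjusted p = 1.39e-07), where SMSr is not part of the labelled lesion. The difference between liver and hepatocytes was not tested. Cfb, at 179.5 to 228.5 CPM in liver, was at 1266 CPM or more in every hepatocyte library. These Cfb levels were counted per Ensembl gene in liver and per Entrez gene in hepatocytes, were scaled separately, and were not tested. The liver count of Cfb also depends on how reads shared with Gm20547 were assigned. In SMSrKO liver the log2 fold change of Cfb was -0.10 ± 0.0973 (adjusted p = 0.685), and -0.05 without WT 1.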

How the data were processed

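RNA was sequenced in 8 liver and 9 hepatocyte libraries, grouped by the labels. For liver the authors deposited whole-number counts per Ensembl gene and a TPM table, which the counts and gene lengths reproduce within 5e-05. For hepatocytes the authors deposited expected counts and FPKM per Entrez gene, per the file headers, and the 6.25% of expected counts that were not whole were rounded, a gene missing from a file being counted as 0. The submitters' processing notes name the builds GRCm38 and mm10, DESeq2 1.30.1, the aligners Bowtie2 2.2.5 and STAR 2.5.2b, and Trimmomatic 0.36. Neither the counter nor its strand setting is given in the sources used here.

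Counts were tested with edgeR 4.0.16 (limma 3.58.1, R 4.3.3): filterByExpr with a minimum count of 10, TMM scaling and the robust quasi-likelihood F test, with Benjamini-Hochberg adjustment over the 15820 liver or 11471 hepatocyte genes tested and a threshold of 0.05. Liver and hepatocyte libraries were fitted separately, all 9 hepatocyte libraries in 1 fit. CPM of a gene is relative to the TMM-scaled total, and CPM summed over a list, or given for Alb, Adipoq, Samd8, Sgms1 and Sgms2, to the library total. SE was taken as |log2 fold change| over the root of the F statistic. Alternatives were DESeq2 1.42.0, RLE factors, library totals alone, no filter, glmTreat at a fold of 1.2, the liver dispersion, a fit of only the 2 groups compared, and each library left out in turn. The test was tried on simulated data. Promoter windows were searched in Python 3.11.15 with pandas 2.3.3, and figures drawn with matplotlib 3.10.9.

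The members and gene lists were chosen with earlier results of these data known. Values in every library are given for members called with a log2 fold change of at least 1, the 3 coagulation and 3 complement members with the smallest p per comparison, and members set against them in the same role. Other pathway genes are drawn from up to 6 per comparison and list, called, with a mean of at least 5 CPM, by size of fold, and some of them are not reported here. The platelet, neutrophil, erythroid and cholangiocyte lists were read too. In liver edgeR called 0 of 3, 6, 5 and 5 genes tested. Without WT 1 it called 3 erythroid genes lower in SMSrKO, and with all libraries DESeq2 called 4 lower. In hepatocytes 1, 0, 1 and 3 were tested: Sox9 was higher in dKO and tKO than in WT, Spp1 and Itga2b were lower and Alas2 higher in tKO than in WT, and Sox9 and Spp1 were lower in tKO than in dKO with edgeR, and DESeq2 did not call Itga2b and Alas2. Proteins of the members were not analysed here.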

Additional observations from a re-analysis of the deposited data

Results flagged for a closer look

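In groups of 4 liver libraries, 8 of the 76 checks (38 members in 2 groups) had 1 library separated from the other 3 by a gap wider than Dixon's 95% critical value on the log2(CPM + 0.5) scale, and chance flags about 1 in 20. WT 1 was the highest for F7 (203.7 CPM, where the rest of the WT group had 96.1 to 109.1), Cpb2 (468.9 against 223.0 to 237.2), Kng1 (2472 against 1382 to 1489) and Cfi (736.9 against 530.5 to 552.8). SMSrKO 8 was the lowest for F2 (1858 CPM, where the rest of the SMSrKO group had 2188 to 2228), Serpinc1 (1859 against 2127 to 2161) and Mbl1 (82.98 against 114.8 to 121.5). SMSrKO 5 was the highest for Masp1 (82.33 CPM against 77.4 to 78.2). Groups of 3 hepatocyte libraries were not checked in this way.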

How the results depend on the processing

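With the liver dispersion, 3 coagulation and 2 complement members were called in dKO against WT, 6 and 2 in tKO against WT, and 0 and 1 in tKO against dKO, in place of 17 and 10, 19 and 11, and 13 and 9. With a fold minimum of 1.2 these counts were 8 and 4, 9 and 6, and 5 and 2. In liver, DESeq2 called 1 coagulation and 2 complement members and the fit without a filter 1 coagulation member, in place of 0 and 0. The other counts of called members stayed within 1.5 times under RLE factors, library totals, 2-group fits and each library left out, and no called member changed sign under any alternative run. Of the calls in dKO against WT, 5 of 27 were lost in some fit with a library left out, as were 4 of 30 in tKO against WT and 4 of 22 in tKO against dKO. No paired analysis was possible because the groups compared share no replicate numbers. Plat, Plau, Tfpi and, in WT hepatocytes, Thbd are at a few CPM or less, where counting error is largest.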
